A study of Mus musculus with 3 samples.

Results

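The regions described here are the strong binding sites of CEBPG at which no ATF4 site was called. They were taken from chromatin immunoprecipitation followed by sequencing (ChIP-seq) in primary mouse embryonic fibroblasts of the C57BL/6 strain. The fibroblasts were isolated at E13.5 and then deprived of amino acids for 3 hours (AAD). All cells were wild type and all were deprived, so no fed cells enter any comparison. There was 1 library for CEBPG, made with an antiserum to its C-terminus, and 1 for ATF4, and the GFP antibody library was not analysed here. Members were selected on the CEBPG score and on the ATF4 peak list. A CEBPG peak was a member when its score was 500 or more, it shared no base with any ATF4 peak and no ATF4 peak centre lay within 250 bp. The score is the number the authors' peak caller attached to each peak and it has no stated unit. By this rule 391 of 25419 CEBPG peaks were members (1.54%). Scores of 500 or more were held by 661 CEBPG peaks (2.6%), of which 59.2% met the rule and the other 270 overlapped an ATF4 peak. Both parts of the ATF4 condition selected the same 391 peaks. The absence of an ATF4 peak is the absence of a call in a list whose scores start at 40.02, from a library of unknown depth. It does not measure the absence of ATF4.

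CEBPG is a basic leucine zipper (bZIP) protein of the C/EBP family that has no strong activation domain of its own. It binds DNA as a dimer, with itself, with other C/EBP proteins or with ATF4, a transcription factor whose translation rises when amino acids run short. Dimers of C/EBP proteins prefer a palindromic C/EBP site. The dimer of a C/EBP protein with ATF4 prefers a C/EBP-ATF response element (CARE), which joins a C/EBP element to an ATF/CREB element and is found at many genes induced by amino acid shortage.

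Sequence could be read at promoters, where a RefSeq table (build GRCm38.p6, the reference release of mm10) gives 300 bases around each annotated transcription start, 250 before it and 50 from it onward. The stretches below, 5' to 3' on the strand of the gene, are shown because a strong CEBPG peak without ATF4 covers each of them and each holds a motif of this kind. Capitals mark CARE (TGATGNAA), the C/EBP-CRE composite (TGACGNAA) or the palindromic C/EBP motif (TTNCGNAA), on either strand.
Atf3: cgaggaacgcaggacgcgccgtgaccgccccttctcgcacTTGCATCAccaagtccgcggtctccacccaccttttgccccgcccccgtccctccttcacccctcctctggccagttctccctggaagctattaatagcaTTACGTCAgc
Tars: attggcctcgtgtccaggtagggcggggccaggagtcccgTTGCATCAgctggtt
Slc1a4: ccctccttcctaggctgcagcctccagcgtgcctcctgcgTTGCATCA
Alkbh3os1: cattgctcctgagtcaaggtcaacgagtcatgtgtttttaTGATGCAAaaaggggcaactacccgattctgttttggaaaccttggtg
Kifc5b: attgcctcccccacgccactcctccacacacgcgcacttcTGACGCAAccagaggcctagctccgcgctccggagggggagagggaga
Abhd11: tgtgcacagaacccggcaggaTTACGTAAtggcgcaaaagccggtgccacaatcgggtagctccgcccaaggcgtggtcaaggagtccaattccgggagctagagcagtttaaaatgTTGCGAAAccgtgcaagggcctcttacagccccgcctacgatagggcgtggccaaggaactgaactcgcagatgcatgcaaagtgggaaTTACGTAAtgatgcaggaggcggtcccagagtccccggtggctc
Pnp: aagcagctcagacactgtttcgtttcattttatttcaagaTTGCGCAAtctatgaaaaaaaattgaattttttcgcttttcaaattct
These lie at chr1:191183334-191183483 (minus strand) for Atf3, chr15:11399659-11399713 (minus) for Tars and chr11:20332710-20332757 (minus) for Slc1a4. The others lie at chr2:93979829-93979916 (plus) for Alkbh3os1, chr17:26916844-26916931 (plus) for Kifc5b, chr5:135008902-135009151 (plus) for Abhd11 and chr14:50944131-50944218 (plus) for Pnp. Atf3 and Tars carry TGATGCAA on the opposite strand, read above as TTGCATCA, and in Slc1a4 the same letters cross the transcription start. For comparison, 2 promoters of amino acid response genes at which a strong CEBPG peak did overlap an ATF4 peak read as follows. They were taken from those that hold such a motif.
Asns: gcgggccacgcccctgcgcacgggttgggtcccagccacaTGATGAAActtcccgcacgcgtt
Chac1: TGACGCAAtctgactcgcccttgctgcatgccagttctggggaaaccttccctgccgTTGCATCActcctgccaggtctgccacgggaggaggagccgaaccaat
The Asns stretch is chr6:7693210-7693272 (minus) and the Chac1 stretch chr2:119350992-119351096 (plus). Both hold CARE, and Chac1 holds the C/EBP-CRE composite as well, the same 2 motifs as the Atf3 promoter. Not all promoters with ATF4 do: CARE was in 14 of 23, and the windows of Psat1 and Gpt2 held none of these motifs.

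The rule used the CEBPG score and the ATF4 peaks, so scores, widths and distances to ATF4 are descriptions. Member scores ran from 500.69 to 3100, with a median of 759.54 and quartiles of 588.3 and 1060. The 270 strong CEBPG peaks with ATF4 ran from 503.12 to 3205.83 with a median of 1393. Scores of 1000 or more were held by 111 of 391 members (28.4%) and by 185 of 270 strong peaks with ATF4 (68.5%). Members were 348 to 1094 bp wide, with a median of 575 bp, against a median of 649.5 bp for strong peaks with ATF4. The members just inside the threshold were nearest Rad23b (503.09), Ubl3 (502.51) and Pde8a (500.69), and the CEBPG peaks without ATF4 just outside it were nearest Osbpl8 (499.96), Atl3 (497.57) and Nucb2 (497.14).

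**Figure D1:**
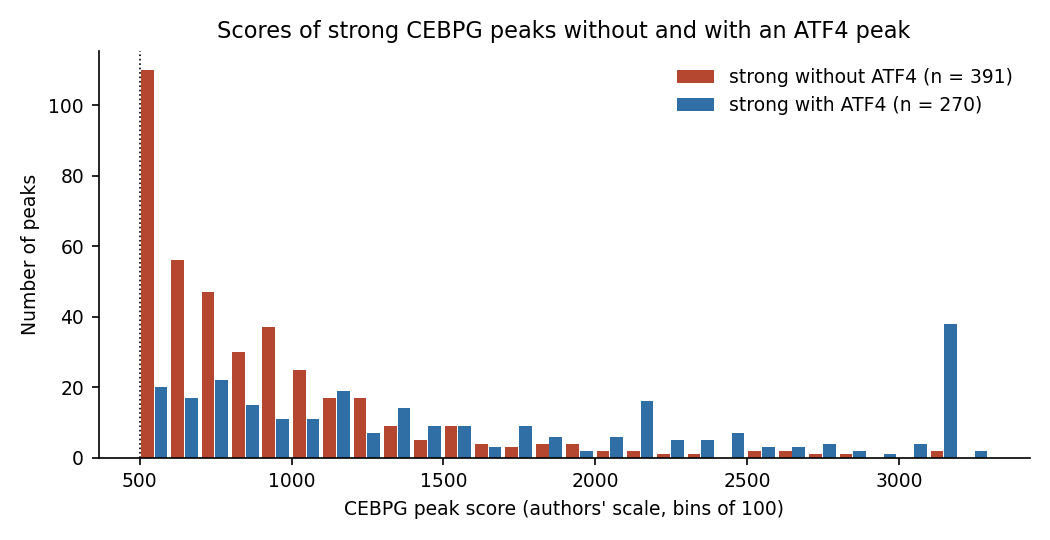
Number of CEBPG peaks (vertical axis) in score bins of 100 (horizontal axis, the authors' scale), for strong peaks without ATF4 and strong peaks with ATF4. The 391 peaks without ATF4 are most numerous just above 500, with a median of 759.54, while the bin that starts at 3100 holds 2 peaks without ATF4 and 38 with it.

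Members were found on every autosome and on chromosome X, in numbers from 6 on chromosome X to 29 on chromosomes 2, 5 and 8. They made up 0.984% of the CEBPG peaks of chromosome 4 and 2.28% of those of chromosome 8, the lowest and highest shares. Chromosome Y, with 11 CEBPG peaks, held none. The median distance from a member to the nearest ATF4 peak centre was 355 kb, with quartiles of 137 and 769 kb. Only 9 members (2.30%, 95% Wilson interval 1.22 to 4.32%) had an ATF4 peak centre within 5 kb, 75 (19.2%) had one within 100 kb, and for 66 (16.9%) the nearest was over 1000 kb away. Moderate CEBPG peaks without ATF4, those with scores from 100 up to 500 (2233 on the nuclear chromosomes), had an ATF4 peak within 100 kb in 19.9% of cases. Wilson intervals cover counting error alone.

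The closest ATF4 neighbour belonged to Cebpb, which encodes C/EBP beta, another dimer partner of CEBPG. Its member (score 845.58, chromosome 2, 167690007 to 167690416) was centred 479 bp from an ATF4 peak with a score of 282.46. Next came a member 1326 bp from an ATF4 peak (score 43.36). Its nearest gene, 82.7 kb away, was Btc, the growth factor betacellulin. Another was 1639 bp from an ATF4 peak (44.5) and 25.4 kb from Lrig3, a membrane regulator of growth factor receptors. Members inside Tln2, encoding talin-2, and near Gm42048 were 1900 bp and 2603 bp from ATF4 peaks. The ATF4 peak near Gm42048 was among the strong ones of its list (771.89), and the one near Tln2 was weak (42.71). The CEBPG scores of these 5 members ran from 714.76 to 1565.69.

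**Figure D2:**
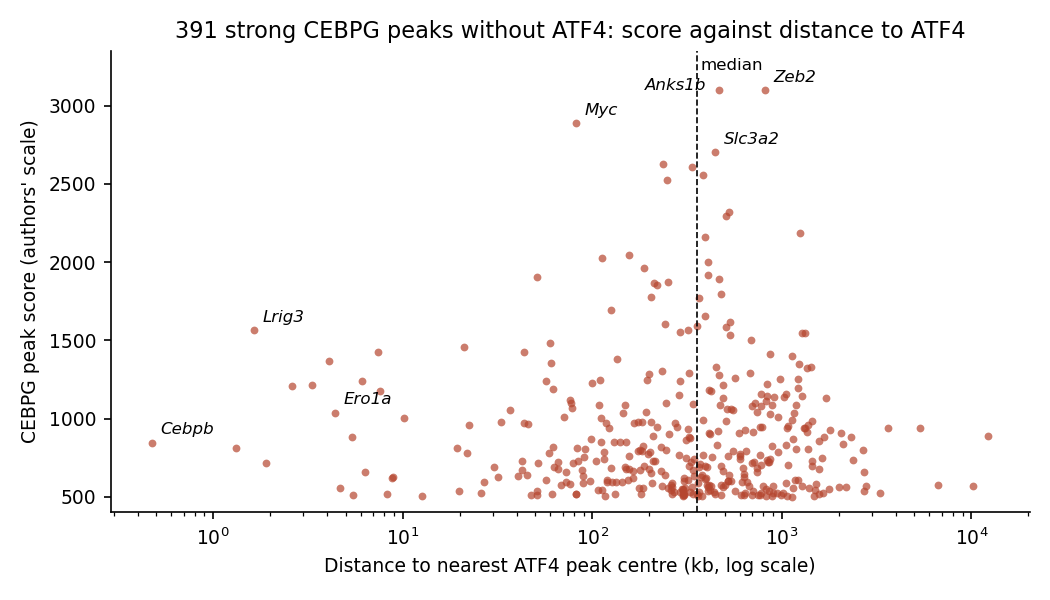
Score of each of the 391 members (vertical axis, the authors' scale) against its distance to the nearest ATF4 peak centre (horizontal axis, kb, log scale), with some nearest genes named. The dashed line is the median of 355 kb, and Cebpb stands at the far left at 0.479 kb.

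Of the first 25 members by score (1770.5 or more), 15 lay inside a gene and 4 were over 100 kb from any protein-coding gene. The centre of 0 of the 25 was within 1 kb of an end of a gene span, where 8.18% of all members were, although Slc3a2 has an annotated start inside its span that was 888 bp from the fourth. The first had the score 3100, inside Anks1b, a gene for a synaptic scaffold protein (chromosome 10, 90140892 to 90141664), 268 kb from an end of the gene. The same score was held by a member 342 kb from Zeb2, a zinc-finger repressor of epithelial genes (chromosome 2, 45459012 to 45459987), and 25.3 kb upstream of the start of Gm30728, a long non-coding RNA. The third (2886.78, chromosome 15, 62328386 to 62329256) lay 338 kb from Myc, the growth-promoting transcription factor gene, with a weaker member (579.62) beside it, both within a stretch of 6.39 kb. The fourth was at Slc3a2, which encodes the heavy chain shared by several amino acid exchangers, and was the member nearest a start among the first 25.

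The remaining members of these 25 had scores from 2624.29 down to 1770.5. Outside genes they lay 5.80 kb from Cd276, an immune checkpoint ligand, 39.8 kb from Mrpl1, a mitochondrial ribosomal protein gene, 12.6 kb from Mapk6, an atypical kinase gene, and 308 kb from Ubash3b. The Ubash3b member was 5.22 kb upstream of Mir100hg, the host transcript of a microRNA cluster. Other members outside genes were nearest Metrnl, a secreted factor (25.9 kb), Bpgm, bisphosphoglycerate mutase (12.6 kb), Pawr, a pro-apoptotic gene (20.6 kb), and Olfm4, which was 2042 kb away, the longest such distance among all members. Inside genes they lay in Ak5, Tmx3, Klhl33, Agbl1, 1700012B07Rik, Dleu7, Slc1a7, Nkain3, Rora, Neurl1a, Rmnd5a, Gpr141 and Hivep1. Slc1a7 encodes a glutamate transporter (1997.25) and Rora a nuclear receptor of the circadian clock (1919.95).

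Over all members, 180 of 391 (46.0%, Wilson interval 41.2 to 51.0%) were centred inside the span of a protein-coding gene, where 42% of all CEBPG peaks were. Of the 270 strong peaks with ATF4, 118 were inside a gene (43.7%, 37.9 to 49.7%), and of the 2233 moderate peaks without ATF4, 1074 were (48.1%, 46.0 to 50.2%). Neither comparison passed Fisher's exact test (two-sided, Benjamini-Hochberg adjusted p = 0.744 for each, over the 11 tests made here). Among protein-coding genes, 40 of 21887 had a member within 1 kb of an end (0.183%). Counted by peak, 32 members had their centre there (8.18%, 5.86 to 11.3%), against 36 strong peaks with ATF4 (13.3%, 9.79 to 17.9%) and 184 moderate peaks without ATF4 (8.24%, 7.17 to 9.45%). Among all CEBPG peaks the share was 4.33%. The difference from strong peaks with ATF4 did not pass (Fisher's exact test, raw p = 0.0371, adjusted p = 0.204), nor did that from moderate peaks (adjusted p = 1). At a score minimum of 750 the difference from strong peaks with ATF4 passed, with 6.03% of 199 members against 14.9% of 222 such peaks (Fisher's exact test, adjusted p = 0.0452). It did not pass within 5 kb of a gene end, with 73 of 391 members against 73 of 270 strong peaks with ATF4 (Fisher's exact test, adjusted p = 0.103). Nor did it pass within 1 kb of an end of any annotated gene, with 11.8% of members against 19.6% of strong peaks with ATF4 (Fisher's exact test, adjusted p = 0.083). Between scores of 500 and 1000 alone the shares were 9.64% of 280 members and 11.8% of 85 strong peaks with ATF4 (Fisher's exact test, adjusted p = 0.748). Every p-value compares these peak lists, from 1 library each, and not cultures.

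Far from genes the shares lay close together, and no test was made. More than 100 kb from any protein-coding gene lay 62 members (15.9%), against 43 strong peaks with ATF4 (15.9%) and 375 moderate peaks (16.8%). The median distance to a gene end was 33.4 kb for members, 21.1 kb for strong peaks with ATF4 and 29.0 kb for moderate peaks. Another CEBPG peak of any score was centred within 5 kb of 95 members (24.3%, 20.3 to 28.8%), against 588 moderate peaks (26.3%, 24.5 to 28.2%, Fisher's exact test, adjusted p = 0.744). Among the members themselves, those of 1000 or more lay within 1 kb of a gene end in 5 of 111 cases (4.50%, 1.94 to 10.1%), and those under 1000 in 27 of 280 (9.64%, 6.71 to 13.7%).

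**Figure D3:**
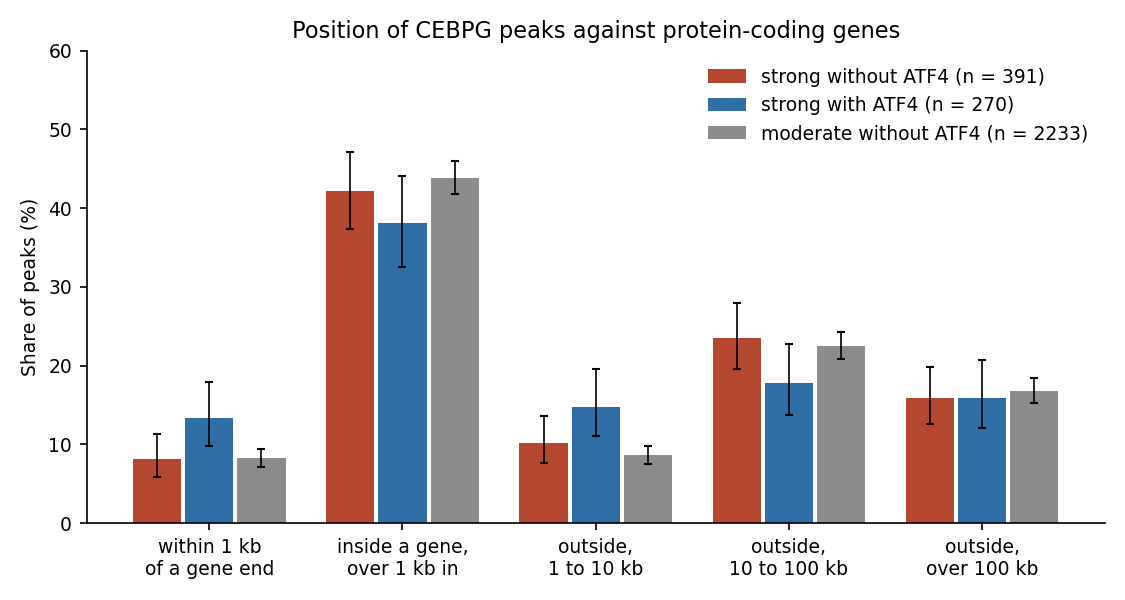
Share of peaks (vertical axis, %) in each class of position against protein-coding genes (horizontal axis), for strong CEBPG peaks without ATF4, strong peaks with ATF4 and moderate peaks without ATF4. Bars start at 0 and error lines are 95% Wilson intervals. Within 1 kb of a gene end the shares are 8.18%, 13.3% and 8.24%, where no contrast passed after adjustment.

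Annotated transcription starts were available for every chromosome of these peaks except 18, which leaves 374 members. Some genes on other chromosomes also had no start available, among them Cars, Slc1a5 and Rars. Counts near starts can therefore be too low. Of the 374 members, 31 (8.29%, 5.90 to 11.5%) were centred within 1 kb of an available start, 20 of them upstream and 11 downstream. For strong peaks with ATF4 the share was 33 of 256 (12.9%, 9.33 to 17.6%, Fisher's exact test, adjusted p = 0.243). The start was that of a protein-coding gene for 22 of the 31 members and of a long non-coding RNA for 9. Over all 374 members the nearest start belonged to a long non-coding RNA in 170 cases (45.5%, 40.5 to 50.5%), against 107 of 256 strong peaks with ATF4 (41.8%, 35.9 to 47.9%). This last difference was not tested.

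Several of these starts belong to genes described here for their role in amino acid handling or stress, picked after their values were seen. Atf3, a bZIP gene induced by many stresses, had a member centred 20 bp upstream of its start (725.28). Bcat1, the cytosolic branched-chain aminotransferase, had a member 128 bp downstream (696.57). Mars1 and Tars, the synthetases for methionine and threonine, had members 109 bp downstream (885.2) and 10 bp upstream (683.29). Slc1a4, a neutral amino acid transporter, had a member 42 bp upstream (520.72), and Slc7a1, the main transporter of cationic amino acids, 362 bp downstream (539.13). At Slc3a2 the member was 888 bp downstream of the nearest start (2703.73, chromosome 19, 8712589 to 8713430), although the nearer end of the gene was 6.13 kb away. At Eprs, the synthetase for glutamate and proline, it was 907 bp downstream (563.07). Niban1, a stress-responsive translation regulator, had a member 736 bp downstream (725.97).

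Other starts with a member belonged to genes of different functions. The highest scores at starts of other protein-coding genes were at Arhgef2, a microtubule-bound activator of RhoA (1613.73, 30 bp upstream), Bud31, a splicing factor (1482.29, 72 bp upstream), and Clcn3, a chloride-proton exchanger of endosomes (1036.29, 24 bp downstream). Ywhag, a 14-3-3 protein gene, had a member 680 bp upstream (929.26). Lower scores were found at Phyhd1 (736.47), Lmbrd1, a lysosomal cobalamin transporter (558.45), Fdxr, ferredoxin reductase (543.76), Pnp, purine nucleoside phosphorylase (514.17), Hax1, a mitochondrial survival factor (509.75), and Rad23b, a nucleotide excision repair factor (503.09). Members within 1 kb of a gene end but farther from any start available here included those at Lsm14a, an RNA-body protein gene (1345.98), Uqcrq, a complex III subunit gene (1067.69), Ddr2, a collagen receptor gene (912.25), Ptpro (902.98), Bst1 (847.2) and Aebp2 (700.95). For some of them the gene's own start may be missing from the annotation used.

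**Figure D4:**
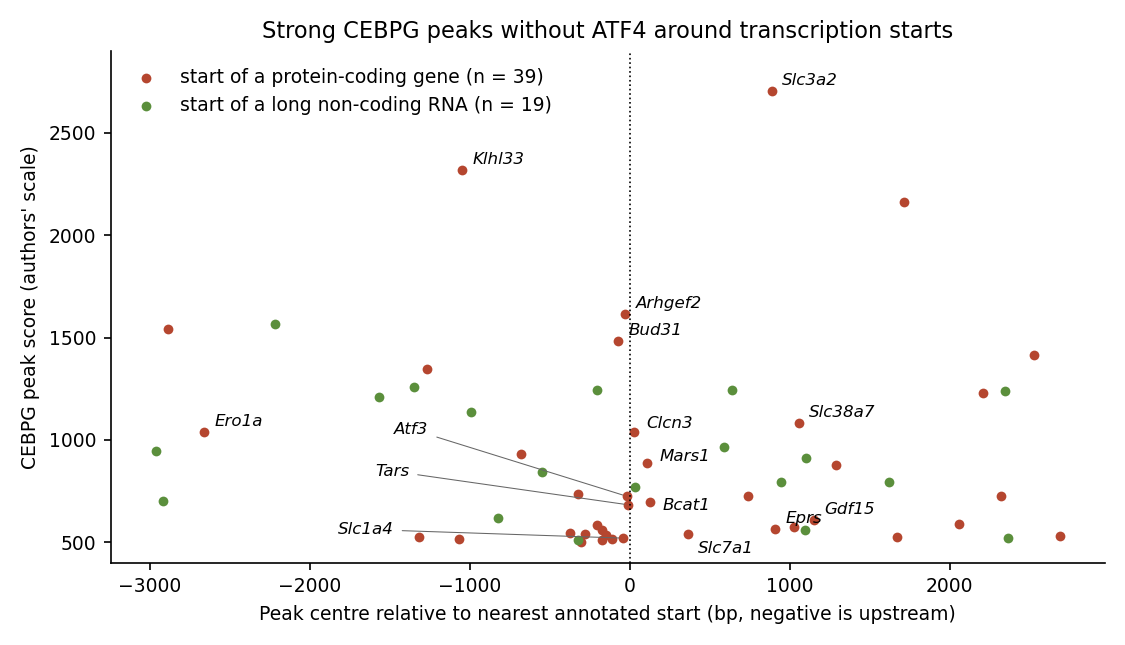
Score of each member (vertical axis, the authors' scale) against the position of its centre relative to the nearest annotated start (horizontal axis, bp, negative is upstream), for members within 3000 bp of a start. Colours separate starts of protein-coding genes and of long non-coding RNAs, and Slc3a2 stands highest at 2703.73.

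The 21 lists of 359 genes were counted for members within 5 kb of a gene end, where 88 of 21887 protein-coding genes had one (0.402%). Of the 359 listed genes 17 did (4.74%), spread over 7 lists. The lists were chosen with knowledge of the amino acid response and of earlier results of these data, so their counts are no independent evidence of a theme. Aminoacyl-tRNA synthetases, which charge transfer RNAs, held the most, 7 of 20 (35.0%). Their scores were 1553.26 at Rars, 1284.92 at Lars, 885.2 at Mars1, 766.9 at Cars, 683.29 at Tars, 645.18 at Nars and 563.07 at Eprs. Of these, 5 members had their centre under 1 kb from where the gene begins or ends, from 10 bp at Tars to 213 bp at Lars, and those at Rars and Eprs were 2.05 kb and 2.53 kb from an end. Of the 20 synthetase genes, 14 had a CEBPG peak of any score within 5 kb, where 16.5% of all protein-coding genes had one, and 4 had an ATF4 peak there, where 2.04% of all genes had one. No synthetase had both an ATF4 peak and a member within this distance, and of all 88 genes with a member there, 2 did. The rule leaves out CEBPG peaks that overlap an ATF4 peak, so this absence is no result about synthetases. Tars had a second member farther out, at 12.8 kb (609.04).

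Amino acid transporters held 4 of 14 (28.6%), namely Slc38a7 (1083.45), Slc1a5 (1043.53), Slc7a1 and Slc1a4, and Slc3a2 had one within 20 kb, the distance at which 1.08% of all protein-coding genes had a member. The Slc38a7 member was 1.06 kb downstream of a start, and the Slc1a5 member was inside the gene, 3.47 kb from an end. The nearest ATF4 peaks were 8.22 kb away at Slc1a4 (ATF4 score 40.87), 19.7 kb at Slc7a1 (202.03) and at least 148 kb at the others. Amino acid synthesis genes held 0 of 17 within 5 kb, where 0.402% of all protein-coding genes had a member. Of the 17, 12 had a CEBPG peak of any score there and 8 had an ATF4 peak. The rule leaves out CEBPG peaks that overlap ATF4, and 4 of the 17 had a CEBPG peak but no ATF4 peak there. Psph, the last enzyme of serine synthesis, had a member inside the gene 8.61 kb from an end (521.11).

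The integrated stress response list held 2 of 15. Gadd45a, a growth arrest gene, had members on both sides (883.05 and 511.09), spanning 11.4 kb with 1 ATF4 peak between them, and Gdf15, a secreted stress hormone, had 1 that was 1.15 kb downstream of its start (607.1). Trib3, a pseudokinase gene, had a member 6.05 kb upstream of its start (1242.04), apart from the CEBPG peak that overlaps ATF4 at its promoter (1007.02). The C/EBP family held 1 of 7 (Cebpb) and the ATF and CREB family 1 of 17 (Atf3). The peak at Mars1 also lies 15.4 kb from Ddit3, which encodes CHOP, a dimer partner of C/EBP proteins. Endoplasmic reticulum chaperones held 1 of 16, Ero1a, an oxidase of protein folding, with a member 2.66 kb upstream of its start (1038.16) and an ATF4 peak (159.56) 4398 bp from that member. Inflammatory secreted factors held 1 of 20, Ccl20, a chemokine gene (1052.67).

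The other 14 lists held no gene with a member within 5 kb of an end, where 0.402% of all protein-coding genes had one. Besides amino acid synthesis these were FOS, JUN and MAF genes (0 of 12), clock and PAR bZIP genes (0 of 15), antioxidant genes (0 of 15), extracellular matrix (0 of 23), fibroblast and mesenchymal regulators (0 of 20), TGF-beta and BMP signalling (0 of 24), adipocyte differentiation (0 of 18), Krüppel-like factors (0 of 10), actin cytoskeleton and adhesion (0 of 20), growth factor receptors and ligands (0 of 20), autophagy (0 of 16), cytosolic ribosomal proteins (0 of 24) and neuronal genes (0 of 16). Taken by nearest gene at any distance, where 1.68% of protein-coding genes are the nearest of a member, 4 of 20 mesenchymal regulators had a member. These were Zeb2 (3100, 342 kb away), Prrx1, a limb mesenchyme homeobox gene (1084.31, inside the gene), Runx2, the osteoblast regulator (870.32, inside the gene), and Sox9, the chondrocyte regulator (625.76, 134 kb away). By the same measure clock and PAR bZIP genes and extracellular matrix had 2 each. Amino acid synthesis, TGF-beta and BMP signalling and Krüppel-like factors had 1 each, and the rest of the 14 lists had none. The share of 1.68% does not allow for gene length or for the distance between genes, so these counts show no preference for a list. Within 20 kb of a gene end, 0 of the 20 mesenchymal regulators had a member.

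The 391 members had 367 different nearest genes, of which 348 had a single member. Cdh11, the mesenchymal cadherin, was the nearest gene of 4, with scores from 544.4 to 1155.86, all outside the gene. The highest-scoring of them was 827 kb from it. They were spread over 1417 kb of chromosome 8, a stretch with 27 CEBPG peaks of any score and 2 ATF4 peaks. Foxp1, a forkhead transcription factor gene, had 3 inside its span (622.45 to 980.65), the closest 8.79 kb from an ATF4 peak. Htra1, a secreted serine protease gene, had 3 inside its span within 22.9 kb (530.31, 903.13 and 1173.67), which were the only CEBPG peaks of any score in that stretch. Lrrc8c, a subunit gene of volume-regulated anion channels, had 3 within 54.3 kb (679.21, 688.8 and 783.55), 2 of them inside the gene, with no other CEBPG peak and no ATF4 peak between them. The other 15 genes with several members had 2 each, among them Rora, Myc, Gadd45a and Tars. Of the 367 genes, 16 were also the nearest gene of a strong peak with ATF4, which is 4.36% of the members' genes and 6.13% of the 261 genes of the other set. Among all 21887 protein-coding genes, 1.68% were the nearest gene of a member. Nearest genes were taken at any distance, and this share does not allow for gene length or for the distance between genes. It is therefore no expected value for the overlap, which was not tested.

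In promoter sequence, 21 members overlapped a 300-base window, and 23 strong peaks with ATF4 did. CARE was found in 7 of the 21 (33.3%, 17.2 to 54.6%), against 14 of 23 (60.9%, 40.8 to 77.8%) with ATF4 and 3.97% of all 32851 windows. The palindromic C/EBP motif was found in 5 of 21 (23.8%, 10.6 to 45.1%), against 0 of 23 with ATF4 (Wilson interval up to 14.3%) and 2.47% of all windows. The C/EBP-CRE composite was found in 3 of 21 (14.3%), against 3 of 23 (13.0%) and 1.59% of all windows. None of these 3 differences passed after adjustment (Fisher's exact test, two-sided, raw p = 0.0805, 0.0187 and 1, adjusted p = 0.243, 0.204 and 1). At a score minimum of 750 CARE was in 3 of 6 windows of members, against 59.1% of 22 with ATF4. Within 200 bp around the peak centre the palindromic C/EBP motif was in 14.3% of the members' windows, against 0 with ATF4. Its letters TTNCGNAA, with N any base, also admit sites that are not palindromes, such as TTTCGGAA at Fdxr. The Fdxr site lay outside the peak. Counting only bases under the peak, the share was 19.0% of members' windows against 0 with ATF4 (Fisher's exact test, adjusted p = 0.242). At least 1 of these 3 motifs was in 13 of 21 windows (61.9%) of members, in 15 of 23 (65.2%) with ATF4 and in 7.81% of all windows. Windows of moderate peaks without ATF4 also held them, with CARE in 29 of 113 (25.7%) and the palindromic C/EBP motif in 17 (15.0%). The composite was in 20 (17.7%) and at least 1 of the 3 in 63 (55.8%). These shares were not tested against members.

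Other bZIP motifs were searched in the same windows. The AP-1 motif TGANTCA was in 5 of 21 windows (23.8%), against 1 of 23 (4.35%) with ATF4 and 7.81% of all windows (Fisher's exact test, adjusted p = 0.243). For moderate peaks without ATF4 the share was 15 of 113 (13.3%), which was not tested against members. Within 200 bp around the peak centre the AP-1 motif was in 9.52% of the members' windows, against 4.35% with ATF4. The AP-1 site at Slc7a1 lay outside the peak, 482 bp from its centre. Counting only bases under the peak, the shares were 19.0% and 4.35% (Fisher's exact test, adjusted p = 0.485). The CRE palindrome TGACGTCA was in 1 of 21, at Lmbrd1, against 0 of 23 and 1.79% of all windows, and the E-box CACGTG, searched as an unrelated motif, in 1 of 21 against 3 of 23 and 7.15% of all windows (Fisher's exact test, adjusted p = 0.744 each). No sites of different motifs overlapped each other in the members' windows. The windows of Clcn3, Phyhd1, Rbm4, Rad23b and the non-coding 3110099E03Rik held none of the 6 motifs, which says only that these letters are not in those 300 bases.

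Sites could be found only in windows that a peak overlapped, so their distances to the peak centre are descriptions and were not tested. All 7 CARE sites of members fell under the peak, a median of 42 bp from its centre (1 to 86 bp). For the 18 CARE sites with ATF4 the median was 28.5 bp (0 to 169 bp). The letters were TGATGCAA in 6 of 7 and TGATGAAA in 1, at Arhgef2, against 12 TGATGCAA, 3 TGATGAAA and 3 TGATGTAA among the 18. The site nearest a peak centre was at Tars, where TGATGCAA begins 15 bases before the start and lies 1 bp from the centre. At Kifc5b, a kinesin gene, the composite TGACGCAA lay 2 bp from the centre. Bud31, whose window also holds the start of Pdap1 on the other strand, carried both the composite TGACGCAA and the C/EBP motif TTACGGAA, 25 bp and 15 bp from the centre. Abhd11, a mitochondrial hydrolase gene, carried 3 C/EBP motifs, TTACGTAA at both sides and TTGCGAAA between them, 20 bp from the centre. At Pnp the perfect palindrome TTGCGCAA was 20 bp from the centre, and at Mars1 TTTCGTAA began 2 bases into the transcript, 104 bp from the centre.

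**Figure D5:**
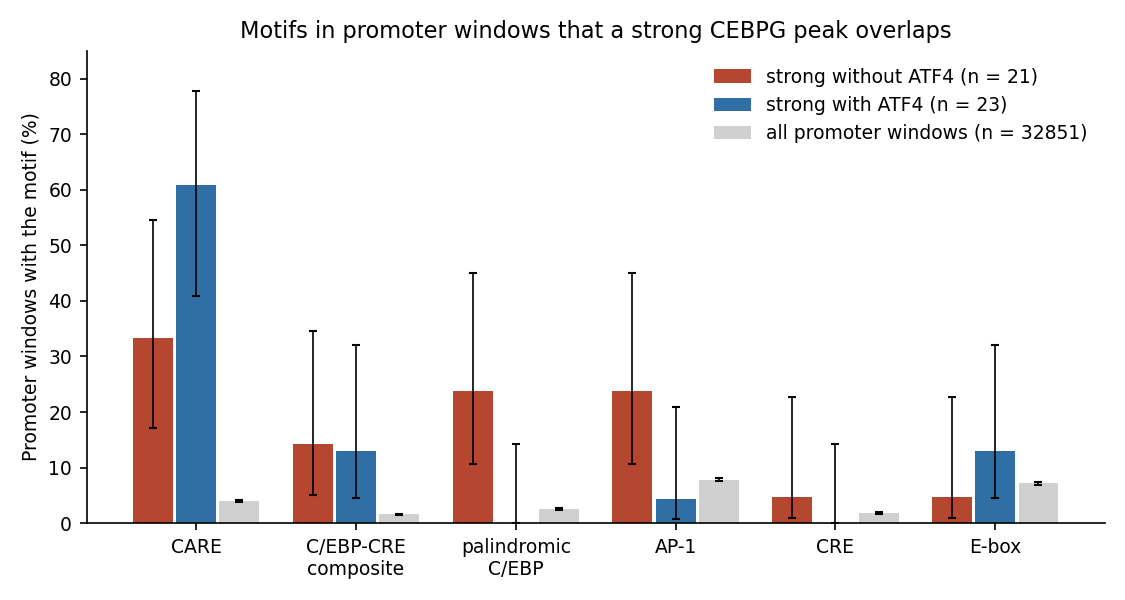
Share of 300-base promoter windows (vertical axis, %) that hold each motif (horizontal axis), for windows overlapped by strong CEBPG peaks without ATF4, by strong peaks with ATF4, and for all RefSeq windows. Bars start at 0 and error lines are 95% Wilson intervals, which are wide at 21 and 23 windows. CARE stands at 33.3% and 60.9%, and the palindromic C/EBP motif at 23.8% and 0.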

How the data were processed

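ChIP-seq peak lists of 2 antibodies, from 1 library each, were used. Per the submitters' processing notes the tools were Trimmomatic, BWA, MACS 1.4.2 and HOMER with the build mm10, and their settings are not stated there. The deposited files give each peak's position and a name that ends in its score, which was taken as the authors' value. The sources used here do not name the library used as background. The files hold no read counts, so depth is unknown.

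Positions were written 1-based. Gene spans (21887 protein-coding genes) and promoter windows came from RefSeq tables of GRCm38.p6. No genome sequence was used, so motifs were searched in promoter windows that a peak overlapped, taking the window with the nearest start. Distances run from the peak's centre, except for gene lists, where any overlap with 5 kb on either side of a gene end counted. All 359 list genes matched, 4 through a synonym.

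Fisher's exact test (two-sided) was used for shares, with Benjamini-Hochberg adjustment over 11 tests, in SciPy 1.17.1 (Python 3.11.15), checked on simulated data. The members, lists and tests were chosen with earlier results of these data known. Named genes were the nearest genes of the 25 highest-scoring members, the highest-scoring members within 1 kb of a gene end, list genes with a member (all of them, beyond the 4 per list planned), genes nearest the most members, members near the score threshold and those closest to an ATF4 peak. Other genes at starts (such as Slc3a2 among list genes within 20 kb, Arhgef2 and Clcn3) were named after their values were seen.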

Additional observations from a re-analysis of the deposited data

How the results depend on the processing

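Of 75 values under alternative settings, 66 neither changed sign nor crossed the threshold, or stayed within 1.5 times for counts. Among them the CRE difference was 0 at a score minimum of 750 and within 200 bp around the peak centre. Raising the score minimum to 750 left 199 members, and 1000 left 111. With nearest genes at any distance 31 list genes carried a member, against 17 within 5 kb. At the minimum of 750 the difference within 1 kb of a gene end from strong peaks with ATF4 was -8.83 percentage points and passed. The other changes, in percentage points, were in differences that did not pass under any setting. With scores of 500 to 1000 in both sets, the difference inside genes from strong peaks with ATF4 was -9.58 and that for the C/EBP-CRE composite -2.52. Without peaks over 1000 bp wide the difference within 1 kb of a gene end from moderate peaks was 0.00253. With wide peaks kept, the difference from moderate peaks within 500 bp of an end was 0.873. With 200 bp around the peak centre the E-box difference was 0.414, that for AP-1 5.18 and that for the palindromic C/EBP motif 14.3. The CARE difference was -9.09 at the minimum of 750 and -13.4 with scores of 500 to 1000 in both sets. The cause of these changes was not tested. Distance to a start in place of a gene end, and motifs restricted to bases under the peak, were chosen after seeing the data and changed no call. No paired analysis was possible because each antibody had 1 library, so that none could be left out either. Unknown depth limits every statement on the absence of an ATF4 peak.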

Other observations

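Within 20 kb of a hairpin of the RefSeq table lay 6 of the 391 members. The share of all CEBPG peaks near a hairpin was not counted, so these are positions only and show no preference. The closest was 3.46 kb from Mir5133 (783.46, nearest gene Glce), and the member at Kifc5b was 4.08 kb from Gm27775 (585.19). A member inside Nr6a1, an orphan nuclear receptor gene, lay 13.1 kb from Mir181b-2 and 14.2 kb from Mir181a-2 (1251.49). Other members were 10.8 kb from Gm51271, near Chka, choline kinase (1196.48), 13.3 kb from Mir6384, near Gpc3, a glypican (938.49), and 15.9 kb from Mir1956, near Eif4e, the cap-binding translation factor (591.67).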
